A study of Homo sapiens with 6 samples.

Results

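The genes described here are the protein-coding ZNF genes (the symbol ZNF, digits and optional letters) that lie on autosomes other than chromosome 19 and had a mean estimated count of 30 or more over the 6 libraries. Within that family they were chosen by that mean count, whatever their difference between genotypes. The set itself was picked with earlier results of these data known. Of 251 such genes outside chromosome 19, 211 reached that count, out of 63086 genes in the table and 509 protein-coding ZNF genes on all chromosomes. Just inside the threshold stood ZNF620 and ZNF713, with mean counts of 31.5 and 33.8, and just outside it ZNF19 and ZNF454, with 26 and 25. All 211 members passed the count filter of the test, and 3 of them had a mean count under 30 in 1 of the genotypes, so that the other genotype kept them: ZNF334 and ZNF620, which were called higher, and ZNF713, which was not called. A375, the source of the libraries, is a human melanoma cell line with an activating BRAF mutation. Wild-type A375 cells, kept in parallel without targeting of the DUS1L locus, gave 3 libraries, and DUS1L knockout cells, made with CRISPR/Cas9 followed by clonal selection, gave the other 3. Both groups grew in the same serum-containing medium, and the labels name no other treatment or allele. DUS1L encodes a dihydrouridine synthase, which modifies uridines of tRNA, and the comparison asks which transcripts differ when its gene is disrupted. The number of clones was not given in the sources used here, so an effect of the genotype and one of clonal selection cannot be told apart.

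The libraries held 17121315 to 18861514 estimated counts, and 53% of the variance lay on a component that separated the genotypes. Wild-type replicate 1 stood apart on the next component, with a score of 31.6, where the other wild-type libraries scored -15.6 and -16.3. DUS1L itself was at 79.95, 75.7 and 77.0 CPM (wild-type) and 55.4, 54.7 and 53.1 CPM (knockout), where CPM are counts scaled by library size and by a factor for composition (edgeR, log2 fold change -0.51, SE 0.063, adjusted p = 1.7e-06). Every knockout library lay below every wild-type library, although the transcript was still counted in all of them. Of the melanocyte lineage markers, SOX10, EDNRB and S100B were lower (log2 fold changes of -0.33, -1.11 and -0.90), TFAP2A was higher (0.29) and MITF was not called (0.072). SOX10 lay between 585 and 618 CPM (wild-type) and between 454 and 519 CPM (knockout). TYR, DCT, MLANA and PMEL, pigment genes that define differentiated melanocytes, were nearly absent, with no more than 9 counts per library. Summed over 6 fibroblast marker genes, the level ran from 33.6 to 98.0 CPM (wild-type) and from 80.8 to 179 CPM (knockout), but none of the 6 was called. The leukocyte, keratinocyte and endothelial markers that could be tested gave no call either. The part of such cells in the results was not tested. The libraries of a genotype are biological replicates per the labels, and the p-values below set the difference between genotypes against the spread between those libraries. As the number of clones is not given, that spread may hold no variation between clones.

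ZNF genes encode proteins with tandem zinc fingers, short loops in which pairs of cysteines and histidines hold a zinc ion and neighbouring fingers read successive bases of DNA. Many also carry a KRAB domain at the amino end, which binds the scaffold protein TRIM28 and through it the histone methyltransferase SETDB1 and the heterochromatin proteins CBX1, CBX3 and CBX5. KRAB zinc finger proteins are known for silencing transposable elements, and their genes multiplied by tandem duplication, so that many stand side by side. A SCAN domain, present in fewer of them, lets the proteins pair with each other. Among the 211 members, a KRAB profile matched the translation of 105 and a SCAN profile that of 17. The number of finger patterns per protein ran from 0 to 36, with a median of 9, and 6 members had none. Counted per kilobase of exon, the median member was at 3.15 CPM, against 5.08 CPM for all protein-coding genes tested.

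ZNF genes outside chromosome 19 were more often higher than lower in DUS1L knockout cells, and most of the differences were small. At an adjusted p under 0.05, 78 members (37.0%) were called higher and 18 (8.5%) lower, while 115 were not called (edgeR). Over all 16046 genes tested, 20.5% were called higher and 20.7% lower. Protein-coding genes of the same chromosomes and the same minimum count, ZNF genes left out, gave 21.9% and 25.6%. The median log2 fold change was 0.16 for the members, -0.03 for those other protein-coding genes and -0.004 for all genes tested. Among the called members, the median fold was 1.38 upward and 1.3 downward, and 67 of 96 calls were under 1.5-fold. In 76 of the 78 higher and 17 of the 18 lower members the 3 knockout values did not overlap the 3 wild-type values, the exceptions being ZNF609 and ZNF789 (higher) and ZNF362 (lower). Called or not, 89 members had all knockout libraries above all wild-type libraries and 27 had them below, against 25.4% and 25.8% of all genes tested. When each of 6 libraries was left out in turn, 56 of the higher and 11 of the lower members were called every time. In bulk RNA, fewer cells of a kind and less RNA per cell cannot be told apart.

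The shift was present in each library. The median deviation of the members from their own mean over all libraries was -0.08, -0.10 and -0.09 on the log2 scale in wild-type replicates 1 to 3 and 0.10, 0.09 and 0.11 in knockout replicates 1 to 3. Summed over the 211 genes, the level was 5339 to 5499 CPM in the wild-type libraries and 6161 to 6169 CPM in the knockout libraries. The ranges of the genotypes did not overlap in either measure.

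**Figure D1:**
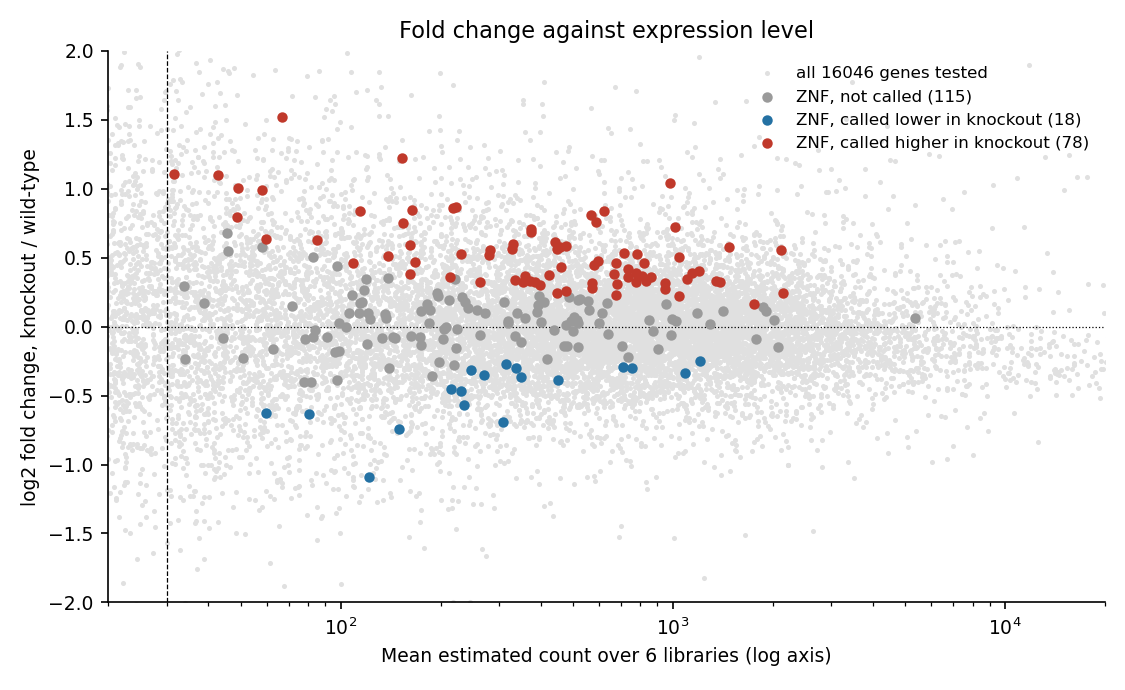
log2 fold change (knockout over wild-type, vertical axis) against the mean estimated count over 6 libraries (horizontal log axis) for all genes tested (pale grey) and for the 211 ZNF genes, coloured by call; the dashed line marks the mean count of 30, and genes beyond the axis limits are not drawn. The 78 higher ZNF genes spread over the whole range of counts, and the 18 lower ones reach down to log2 fold change -1.09.

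A stretch of chromosome 7 held the most uniform group of neighbours. ZNF genes were grouped with their neighbours where consecutive protein-coding ZNF genes lay no more than 250 kb apart, which gave 11 neighbourhoods with 4 or more members, 63 members in all. In the chromosome 7 neighbourhood from 149069641 to 149497817 (GRCh38), all 8 ZNF genes were members and all 8 were called higher, with a median log2 fold change of 0.40. They follow each other as ZNF786, ZNF425, ZNF398, ZNF282, ZNF212, ZNF783, ZNF777 and ZNF746, and a KRAB profile matched all 8. ZNF786 (ENSG00000197362.15; chromosome 7, 149069641 to 149090782, minus strand) was at 6.47, 7.32 and 5.52 CPM (wild-type) and 12.1, 10.3 and 10.04 CPM (knockout) (log2 fold change 0.75, SE 0.15, adjusted p = 0.000414). Its lowest knockout library lay above its highest wild-type library, as was true of each of the 8 genes. ZNF398 (ENSG00000197024.9; chromosome 7, 149126416 to 149183042, plus strand) was at 19.9, 24.1 and 20.3 CPM (wild-type) and 32.3, 33.3 and 30.7 CPM (knockout) (log2 fold change 0.58, SE 0.093, adjusted p = 4.23e-05), and its wild-type replicate 2 stood above the other wild-type libraries. ZNF746, which encodes PARIS, a repressor degraded with the help of parkin, was at 39.8, 36.2 and 37.9 CPM (wild-type) and 46.2, 53.9 and 48.5 CPM (knockout) (log2 fold change 0.38, SE 0.077, adjusted p = 0.000437). ZNF425, with the fewest counts of the 8, had 2.88, 1.84 and 1.86 CPM (wild-type) and 3.61, 5.78 and 3.72 CPM (knockout) (log2 fold change 0.99, SE 0.26, adjusted p = 0.00459), and its knockout replicate 2 stood above the other knockout libraries. Leaving out that library ended the ZNF425 call (adjusted p = 0.053, log2 fold change 0.74). ZNF282, ZNF212, ZNF783 and ZNF777 rose by 0.26 to 0.42. ZNF212 lost its call without knockout replicate 1 (adjusted p = 0.0714). ZNF783 lost it without knockout replicate 1 or 2 or wild-type replicate 1 or 3 (adjusted p = 0.0525 to 0.147) or after a correction for transcript length and GC content, without and with the replicate number as a block (adjusted p = 0.0636 and 0.0763). Of the 3 other protein-coding genes within 250 kb that had the same minimum count, EZH2, PDIA4 and KRBA1, none was called higher and 1 was called lower.

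On chromosome 12, a neighbourhood from 132918306 to 133214832 held 7 members with a KRAB match, of which 5 were called higher and none lower (median log2 fold change 0.36). ZNF140 (ENSG00000196387.10; chromosome 12, 133080474 to 133107526, plus strand) was at 15.99, 14.4 and 13.8 CPM (wild-type) and 21.2, 21.3 and 24.5 CPM (knockout) (log2 fold change 0.60, SE 0.11, adjusted p = 0.000123). ZNF26 was at 20.8, 21.6 and 18.5 CPM (wild-type) and 27.1, 32.01 and 31.2 CPM (knockout) (log2 fold change 0.57, SE 0.10, adjusted p = 8.54e-05). In both genes the genotypes were apart, by more than the spread within either. ZNF268 had 18.6, 16.3 and 18.3 CPM (wild-type) and 22.7, 22.4 and 23.4 CPM (knockout) (log2 fold change 0.36, SE 0.10, adjusted p = 0.00499). ZNF10, whose KRAB domain is the one fused to inactive Cas9 to silence genes in the laboratory, was at 7.11, 7.37 and 4.77 CPM (wild-type) and 8.29, 10.5 and 8.69 CPM (knockout) (log2 fold change 0.51, SE 0.17, adjusted p = 0.0216). Its call was lost without knockout replicate 2 (adjusted p = 0.117) or wild-type replicate 3 (adjusted p = 0.13). ZNF605, at 20.8, 13.4 and 16.05 CPM (wild-type) and 20.9, 21.7 and 20.8 CPM (knockout) (log2 fold change 0.34, SE 0.13, adjusted p = 0.0401), had its wild-type replicate 1 close to the knockout libraries. Without wild-type replicate 2 the ZNF605 log2 fold change was 0.196 (adjusted p = 0.236), and the call was also lost without any of the knockout libraries or wild-type replicate 3, and with DESeq2 (adjusted p = 0.051), upper quartile scaling (adjusted p = 0.0541) and the length and GC correction without and with the replicate block (adjusted p = 0.0959 and 0.0664). ZNF84 and ZNF891, with overlapping genotypes, gave no call (log2 fold changes of 0.22 and 0.029 at adjusted p = 0.0811 and 0.931). ZNF140 and ZNF891 share exon sequence on opposite strands, so their reads may not be separable. Without knockout replicate 2 or wild-type replicate 3, 3 of the 7 were called.

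Promoters were searched next for short DNA patterns, among them the core of the long pattern at which the activator ZNF143 binds promoters. ZNF143 is itself a member, called higher, and its part in the differences of the other members was not tested. RefSeq promoter windows (GRCh38.p14, 250 bases before to 50 after the start) matched 180 of the 211 members by symbol. The core of the ZNF143 pattern, searched as ACTACANNT on both strands, was present in 20 of those 180 windows (11.1%), in 5.2% of the windows of tested protein-coding genes and in 3.9% of all 27305 windows. It was in 15.2% of the windows of members with a KRAB match and 6.8% of those without. By call it stood in 9 of 67 windows of higher members (13.4%), 1 of 15 of lower members (6.7%) and 10 of 98 of members not called (10.2%). Of the 7 chromosome 12 neighbours, the windows of ZNF605, ZNF26, ZNF140 and ZNF268 held it, and all 4 of those genes were called higher, but ZNF10 was also called higher without it. On chromosome 5, the windows of the neighbours ZNF354A, ZNF354B and ZNF354C held it, and none of these genes was called. Of the 4 chromosome 10 neighbours described below, the window of ZNF37A, the only one called higher, held it, and those of ZNF248, ZNF25 and ZNF33A did not. ZNF277, called lower, also held it. A match is a description of letters and was not tested as a binding site. The stretches shown carry the pattern in capitals, on the opposite strand to the one searched. ZNF33A is shown as a neighbour without a full match, although its letters aaaggtagt come close to one. They are ZNF605 at chr12:132956307-132956556 (minus strand), ZNF26 at chr12:132986117-132986366 (plus strand), ZNF140 at chr12:133080673-133080822 (plus strand), ZNF268 at chr12:133181433-133181462 (plus strand), ZNF37A at chr10:38094087-38094336 (plus strand) and ZNF33A at chr10:38010425-38010674 (plus strand).
ZNF605: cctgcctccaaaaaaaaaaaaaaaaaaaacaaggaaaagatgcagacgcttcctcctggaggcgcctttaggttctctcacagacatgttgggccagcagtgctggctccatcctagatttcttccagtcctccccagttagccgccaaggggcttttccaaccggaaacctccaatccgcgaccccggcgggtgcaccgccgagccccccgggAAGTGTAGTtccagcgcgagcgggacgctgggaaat
ZNF26: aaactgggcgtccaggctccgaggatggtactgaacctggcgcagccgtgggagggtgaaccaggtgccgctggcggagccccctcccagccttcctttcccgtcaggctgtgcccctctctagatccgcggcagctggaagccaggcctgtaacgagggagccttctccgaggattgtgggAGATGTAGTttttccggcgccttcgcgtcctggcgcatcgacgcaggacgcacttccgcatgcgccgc
ZNF140: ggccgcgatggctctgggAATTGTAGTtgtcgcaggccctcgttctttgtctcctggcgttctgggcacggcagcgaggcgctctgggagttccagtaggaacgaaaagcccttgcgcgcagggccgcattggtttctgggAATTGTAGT
ZNF268: gaggcctctgggAGTTGTAGTttttttgcc
ZNF37A: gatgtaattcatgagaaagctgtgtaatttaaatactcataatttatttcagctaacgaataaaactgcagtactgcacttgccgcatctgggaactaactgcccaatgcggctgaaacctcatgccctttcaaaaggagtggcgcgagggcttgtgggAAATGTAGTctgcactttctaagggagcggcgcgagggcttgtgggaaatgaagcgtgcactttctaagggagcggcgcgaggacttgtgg
ZNF33A: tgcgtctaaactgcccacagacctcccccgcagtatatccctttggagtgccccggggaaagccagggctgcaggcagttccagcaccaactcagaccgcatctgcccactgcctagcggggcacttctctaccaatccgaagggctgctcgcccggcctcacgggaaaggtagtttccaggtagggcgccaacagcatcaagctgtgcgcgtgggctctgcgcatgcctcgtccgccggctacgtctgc

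In these stretches the capitals give the pattern's reverse complement, ANNTGTAGT, in which N is any base. The match begins 36 bases before the start of ZNF605, 68 before that of ZNF26, 50 before that of ZNF268 and 91 before that of ZNF37A. ZNF140 has 2 matches, 232 and 109 bases before its start, and ZNF605 and ZNF37A each have 1 more that is not wholly within the printed bases. Of 8 other patterns searched, the ETS pattern CCGGAAG was in 37.8% of the members' windows, 18.8% of those of tested protein-coding genes and 10.7% of all windows. It stood in 49.3% of the windows of higher members, 33.3% of lower members and 30.6% of members not called. The SP1 pattern GGGCGG was in 63.3% of the members' windows and 69.8% of those of tested protein-coding genes, and the NRF1 pattern GCGCANGCG in 17.2% and 14.4%. Among stress-linked patterns the shares in members and in tested protein-coding genes were AP-1 (TGANTCA) in 3.9% against 4.7%, NRF2 (TGACNNNGC) in 13.9% against 14.8% and HSF1 (GAANNTTC) in 3.9% against 4.8%. The YY1 pattern AAGATGGCG was in 2.8% against 3.8% and the CRE pattern TGACGTCA in 4.4% against 3.2%. Each pattern was searched on both strands, and the windows of neighbouring duplicated genes share ancestry.

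The chromosome 10 neighbourhood, from 37776526 to 38150293, went the other way. Of its 4 KRAB members 3 were called lower and 1 higher, with a median log2 fold change of -0.45. ZNF248 (ENSG00000198105.16; chromosome 10, 37776526 to 37858106, minus strand) was at 9.64, 12.3 and 9.77 CPM (wild-type) and 5.53, 7.45 and 6.04 CPM (knockout) (log2 fold change -0.74, SE 0.16, adjusted p = 0.000727). All of its wild-type libraries were above all of its knockout libraries, as were those of ZNF25 and ZNF33A. ZNF25 had 4.82, 3.63 and 3.84 CPM (wild-type) and 2.60, 2.54 and 2.82 CPM (knockout) (log2 fold change -0.62, SE 0.23, adjusted p = 0.0321). ZNF33A had 20.3, 19.4 and 18.7 CPM (wild-type) and 15.5, 16.4 and 16.5 CPM (knockout) (log2 fold change -0.27, SE 0.10, adjusted p = 0.038). ZNF37A, the last gene of the row, had 28.3, 27.5 and 28.2 CPM (wild-type) and 40.01, 36.4 and 40.6 CPM (knockout) (log2 fold change 0.48, SE 0.079, adjusted p = 5.87e-05), and its genotypes were apart in the opposite direction. The ZNF25 call was lost without any of the knockout libraries or without wild-type replicate 1 (adjusted p = 0.0517 to 0.141), and with DESeq2 (adjusted p = 0.0612). With DESeq2, and without any 1 of the knockout libraries or wild-type replicate 1, the neighbourhood had 1 lower and 1 higher call. ZNF33A was called lower in only 1 of the 6 fits that left out a library, the one without wild-type replicate 3, and not with DESeq2 (adjusted p = 0.0753), library size alone (adjusted p = 0.0819), no count filter (adjusted p = 0.0544) or the replicate number as a block (adjusted p = 0.0578). ZNF248 stayed called under each of those settings.

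Chromosome 1 had 3 adjacent KRAB genes that rose while their outer neighbours did not. ZNF669 (ENSG00000188295.15; chromosome 1, 247099962 to 247104372, minus strand) was at 3.94, 5.74 and 5.70 CPM (wild-type) and 14.2, 10.5 and 11.1 CPM (knockout) (log2 fold change 1.22, SE 0.17, adjusted p = 8.13e-06), and every knockout library lay well above every wild-type library. ZNF670, the gene before it along the chromosome, was at 10.7, 7.21 and 8.32 CPM (wild-type) and 17.3, 17.05 and 13.3 CPM (knockout) (log2 fold change 0.86, SE 0.15, adjusted p = 0.00011). ZNF124, the gene after it, was at 7.29, 6.72 and 7.85 CPM (wild-type) and 11.3, 11.4 and 10.2 CPM (knockout) (log2 fold change 0.59, SE 0.14, adjusted p = 0.0016). The outer members of the neighbourhood, ZNF695 and ZNF496, had overlapping genotypes (log2 fold change -0.075 and 0.021, adjusted p = 0.732 and 0.813). ZNF670 shares exons with a read-through transcript that joins it to ZNF695, so reads may be divided between them. The longest run of letters common to the promoter windows of ZNF669, ZNF670 and ZNF124 was GGGGCGGGGCCT, found after their values were seen. It is not particular to these genes, since it stood in 3.22% of the windows of tested protein-coding genes and 2.22% of the members' windows (4 of 180, the other being that of ZNF92). The 3 stretches carry it in capitals, 113, 49 and 96 bases before the starts of ZNF669, ZNF670 and ZNF124, at chr1:247104357-247104606 (minus strand), chr1:247078812-247079061 (minus strand) and chr1:247172021-247172270 (minus strand).
ZNF669: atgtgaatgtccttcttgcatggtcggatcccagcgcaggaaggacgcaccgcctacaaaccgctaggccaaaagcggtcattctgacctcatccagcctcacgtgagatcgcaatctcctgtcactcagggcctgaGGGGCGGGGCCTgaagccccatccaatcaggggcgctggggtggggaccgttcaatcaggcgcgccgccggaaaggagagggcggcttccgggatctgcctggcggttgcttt
ZNF670: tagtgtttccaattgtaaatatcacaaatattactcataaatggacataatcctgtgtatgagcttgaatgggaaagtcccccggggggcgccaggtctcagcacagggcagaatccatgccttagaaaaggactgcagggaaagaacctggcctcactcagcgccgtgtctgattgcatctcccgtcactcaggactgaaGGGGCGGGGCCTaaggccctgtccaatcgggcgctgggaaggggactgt
ZNF124: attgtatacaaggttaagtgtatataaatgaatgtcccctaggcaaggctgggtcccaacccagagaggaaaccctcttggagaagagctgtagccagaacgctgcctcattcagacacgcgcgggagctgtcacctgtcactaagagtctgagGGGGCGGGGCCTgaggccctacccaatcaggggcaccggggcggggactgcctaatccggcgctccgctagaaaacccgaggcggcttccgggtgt

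On chromosome 16, the neighbourhood from 3112560 to 3443504 had 5 of 7 members higher and 1 lower. ZNF75A was at 16.8, 14.6 and 16.6 CPM (wild-type) and 26.4, 28.5 and 23.7 CPM (knockout) (log2 fold change 0.71, SE 0.10, adjusted p = 1.4e-05). ZNF174, a SCAN protein without a KRAB match, was at 22.9, 20.3 and 19.8 CPM (wild-type) and 16.95, 15.6 and 18.5 CPM (knockout) (log2 fold change -0.30, SE 0.10, adjusted p = 0.0261), the opposite direction to ZNF75A and ZNF597, the members on both sides of it. Its call was lost without wild-type replicate 1 or knockout replicate 1 or 2 (adjusted p = 0.0653 to 0.107) and with library size alone (adjusted p = 0.0571). ZNF213, ZNF200, ZNF263 and ZNF597 rose by 0.32 to 0.47, and ZNF597 lost its call without knockout replicate 3 or wild-type replicate 2 or 3 (adjusted p = 0.0533 to 0.127). Among the 19 other protein-coding genes within 250 kb that had the same minimum count, 5 were higher and 4 lower. A second chromosome 16 neighbourhood, from 30378106 to 30787205, had 1 of 8 members higher, ZNF764, at 12.99, 14.4 and 11.3 CPM (wild-type) and 19.1, 18.6 and 17.6 CPM (knockout) (log2 fold change 0.52, SE 0.11, adjusted p = 0.00104). On chromosome 7, the 6 members between 63998849 and 65006684 (ZNF736, ZNF680, ZNF107, ZNF138, ZNF273 and ZNF117) gave no call (edgeR), with log2 fold changes from -0.19 to 0.18. The remaining neighbourhoods had 2 of 4 members higher on chromosome 4, 1 of 4 on chromosome 3, 1 of 6 on chromosome 8 and none of 4 on chromosome 5, with none lower. Of the 11 neighbourhoods, the first one on chromosome 7 and the one on chromosome 10 had a call for every member, in 1 direction on chromosome 7 and in both on chromosome 10.

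**Figure D2:**
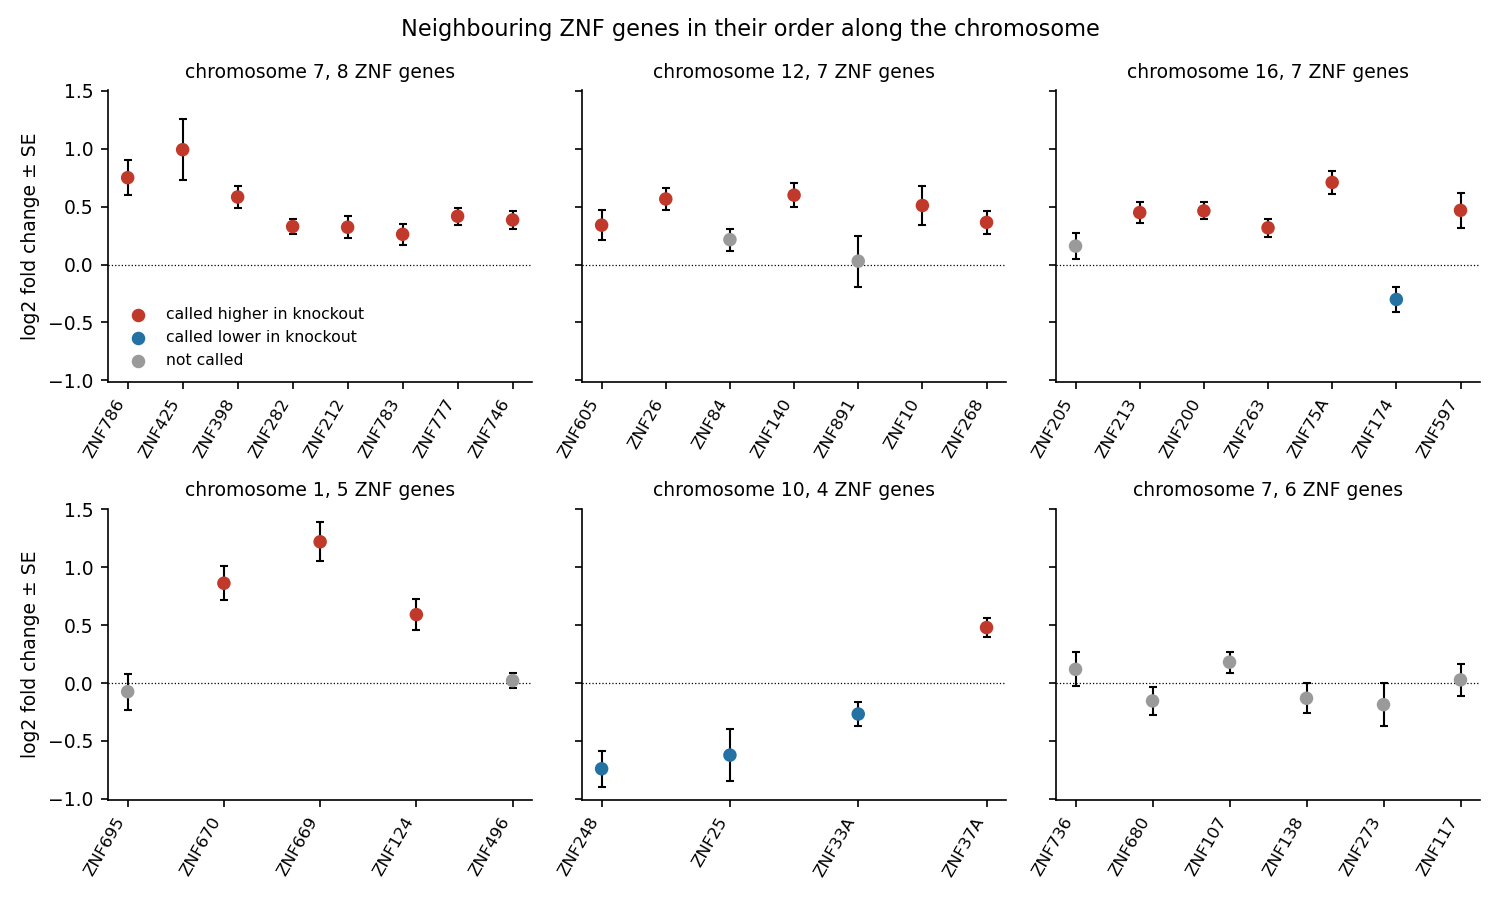
log2 fold change (knockout over wild-type, vertical axis) with its standard error for the members of 6 neighbourhoods, in their order along the chromosome (horizontal axis, not to scale), coloured by call. All 8 genes of the first panel are higher, 3 of 4 on chromosome 10 are lower, and the 6 genes of the last panel lie between -0.19 and 0.18.

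By chromosome, the share of members called higher ran from 11.1% to 66.7%, and members lay on 19 chromosomes, with none on 13 or 21. Chromosome 7 had the most members, 27, of which 15 were higher and 2 lower (median log2 fold change 0.32). Its 544 other protein-coding genes with the same minimum count had 23.3% higher, and their median was -0.013. On chromosome 16, 12 of 26 members were higher and 1 lower, on chromosome 1 the counts were 8 and 2 of 18, and on chromosome 12 they were 6 and 0 of 12. On chromosome 11, 4 of 6 members were higher and none lower, while its other protein-coding genes had 18.9% higher and 34.0% lower. Chromosomes 10 and 18 were those with more lower than higher members, 6 against 4 of 14 and 3 against 1 of 8, with medians of -0.27 and -0.13. The other protein-coding genes of chromosome 10 had a median of -0.01, with 23.3% higher and 25.3% lower, and those of chromosome 18 a median of -0.028. With 3 to 27 members a chromosome, these shares are descriptions of few genes.

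**Figure D3:**
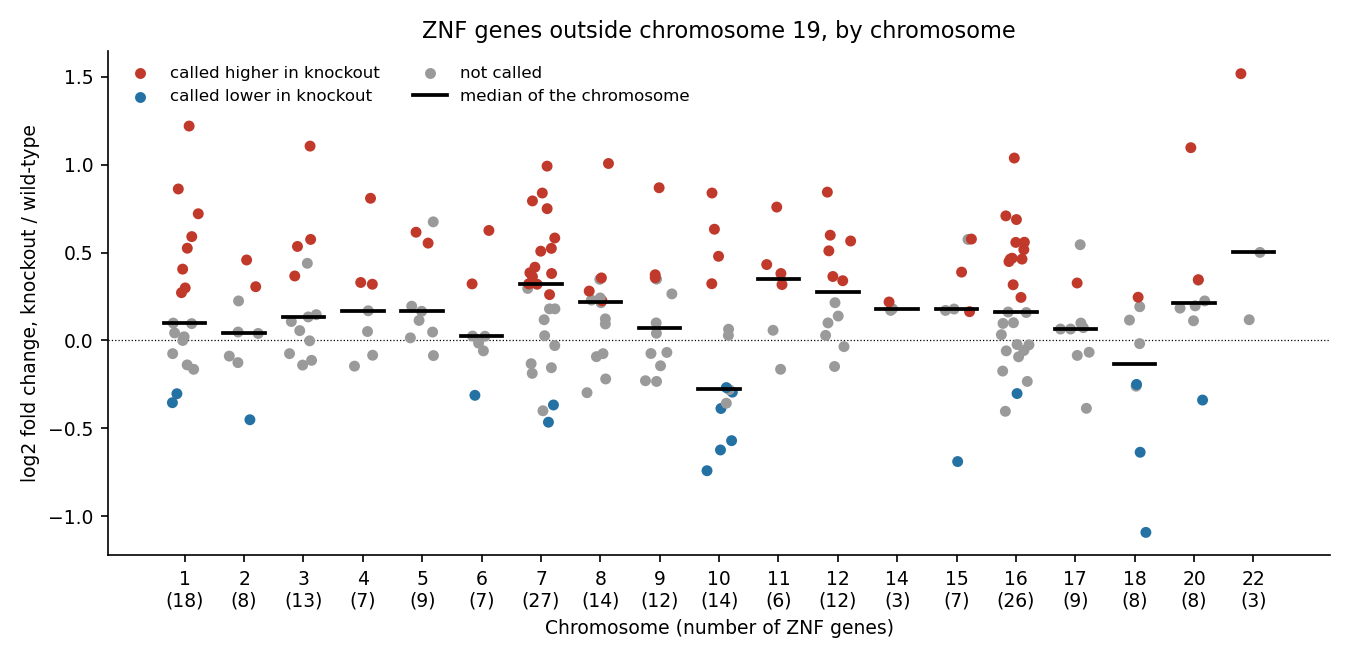
log2 fold change (knockout over wild-type, vertical axis) of each of the 211 ZNF genes by chromosome (horizontal axis, with the number of genes), coloured by call; points are spread sideways at random and black bars are medians. The medians of chromosomes 10 and 18 lie below 0, at -0.27 and -0.13, and those of the other 17 above it.

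On chromosome 10 the lower members were not confined to the neighbourhood of ZNF248. ZNF22, on the same chromosome, was at 29.1, 30.5 and 26.8 CPM (wild-type) and 21.4, 21.7 and 22.96 CPM (knockout) (log2 fold change -0.39, SE 0.09, adjusted p = 0.00162). ZNF365, which has a part in genome stability and is induced by p53, was at 16.5, 15.8 and 15.2 CPM (wild-type) and 12.5, 10.6 and 8.80 CPM (knockout) (log2 fold change -0.57, SE 0.13, adjusted p = 0.00133), and its knockout replicate 3 was the lowest library. ZNF511 fell by 0.29 (adjusted p = 0.00699), a call that was lost without wild-type replicate 2 (adjusted p = 0.0638). Other members of the chromosome rose: ZNF485 at 5.70, 3.74 and 4.48 CPM (wild-type) and 8.13, 8.96 and 7.78 CPM (knockout) (log2 fold change 0.84, SE 0.18, adjusted p = 0.00071), ZNF239 (log2 fold change 0.63, adjusted p = 0.029) and ZNF503 (log2 fold change 0.32, adjusted p = 0.0102). ZNF239 was not called in 4 of the 6 fits that left out a library or with DESeq2 (adjusted p = 0.0526) or no count filter (adjusted p = 0.0582), and ZNF503 lost its call without knockout replicate 1 (adjusted p = 0.0652). On chromosome 18, ZNF521, a cofactor that holds progenitor cells of several lineages back from differentiation, was at 9.52, 10.7 and 7.85 CPM (wild-type) and 4.62, 3.70 and 4.85 CPM (knockout) (log2 fold change -1.09, SE 0.17, adjusted p = 3.81e-05), the lowest fold change of the 211. ZNF519 was at 4.53, 6.29 and 5.70 CPM (wild-type) and 3.72, 3.24 and 3.67 CPM (knockout) (log2 fold change -0.64, SE 0.20, adjusted p = 0.0143). Its call was lost without knockout replicate 2 (adjusted p = 0.0534) or wild-type replicate 2 (adjusted p = 0.0834).

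KRAB members were called higher in a larger share than the others, and higher calls were more common among members with more counts. Over all genes tested, 20.5% were higher and 20.7% lower. Of the 105 members with a KRAB match, 46 were higher and 4 lower (median log2 fold change 0.23), and of the 106 without it 32 were higher and 14 lower (median 0.098). The difference between the classes was not tested, and 2 KRAB members were called lower with DESeq2 and in 5 of the 6 fits that left out a library, all but the one without wild-type replicate 3. The KRAB members had the lower counts, with a median mean count of 219 against 456. A low count makes a call harder, and the part of the count in these shares was not tested. In 4 classes of mean count of about equal size, 11, 15, 23 and 29 members were called higher, from the lowest class (52 genes, 31.5 to 139.8 counts) to the highest (53 genes, 633.1 to 5380.6 counts), and 3, 8, 3 and 4 were called lower. Their median log2 fold changes were 0.099, 0.11, 0.20 and 0.23. The share higher was 21.2% in the lowest class, near the 20.5% of all genes tested, and 54.7% in the highest. The share of all genes tested was not taken by class of count. In the highest class 11 of 12 KRAB members were higher, with ZNF496 as the exception, against 18 of 41 without a KRAB match. In the lowest class the order was the other way, with 7 of 36 KRAB members higher (19.4%, median log2 fold change 0.095) against 4 of 16 without a KRAB match (25%, median 0.176). Among the KRAB members of the highest class, ZNF267 had the largest increase. It was at 43.4, 29.5 and 35.8 CPM (wild-type) and 75.02, 75.7 and 72.1 CPM (knockout) (log2 fold change 1.04, SE 0.11, adjusted p = 5.58e-06). ZNF316 was at 44.2, 46.2 and 55.6 CPM (wild-type) and 72.5, 69.2 and 65.8 CPM (knockout) (log2 fold change 0.51, SE 0.08, adjusted p = 3.87e-05). In both genes the knockout libraries lay above all wild-type libraries. ZNF7, the weakest of the 11 higher KRAB members of that class, was at 35.3, 34.8 and 35.2 CPM (wild-type) and 42.1, 36.8 and 44.2 CPM (knockout) (log2 fold change 0.23, SE 0.08, adjusted p = 0.0291). Its call was lost without knockout replicate 1 or 3 or wild-type replicate 2 or 3 (adjusted p = 0.0678 to 0.165), and with the length and GC correction without and with the block (adjusted p = 0.0894 and 0.11).

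**Figure D4:**
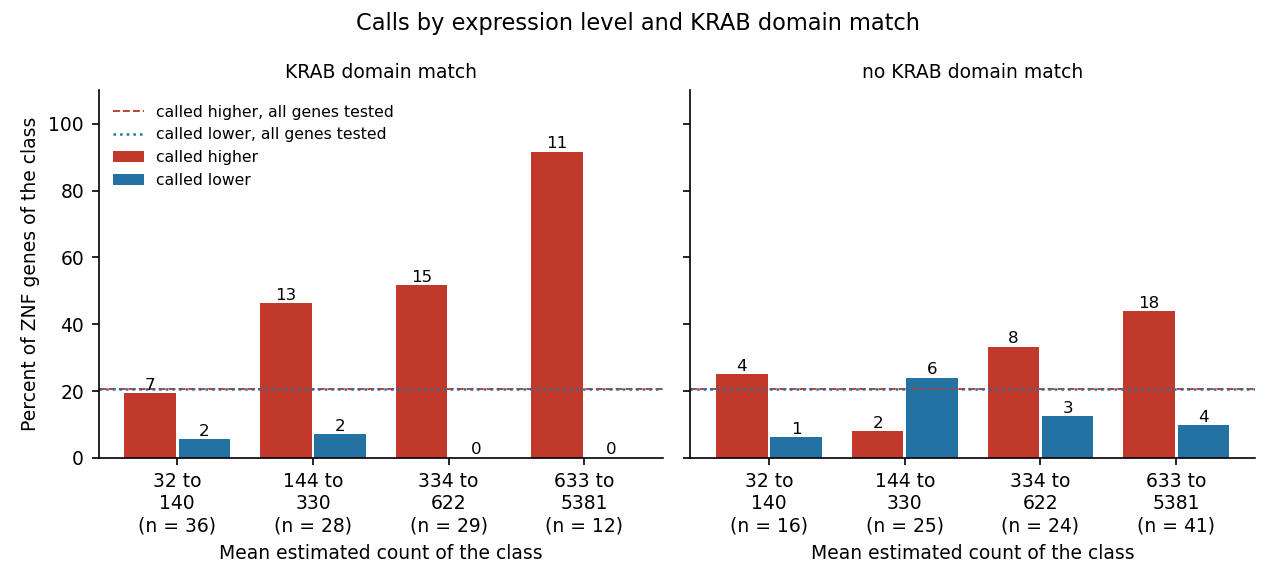
Percent of members called higher (red) or lower (blue) in 4 classes of mean estimated count (horizontal axis, with the number of genes), for members with a KRAB match (left) and without (right); figures on the bars are numbers of genes and the lines are the shares over all genes tested, 20.5% and 20.7%. The share called higher among KRAB members grows from 19.4% to 91.7% over the classes, and the lower calls without a KRAB match reach 24.0% in the second class.

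The share of SCAN members called higher, 35.3%, was near the 37.0% of all members. Among all genes tested, 20.5% were higher and 20.7% lower. Of the 17 SCAN members, 6 were higher, 1 was lower and 10 were not called, and all 6 that rose also had a KRAB match. The 4 without a KRAB match were ZNF174, described above, and ZNF232, ZNF24 and ZNF397, which were not called. By number of finger patterns, the share called higher was 30.3% for 0 to 3 fingers, 41.2% for 4 to 7, 36.9% for 8 to 11, 33.3% for 12 to 15 and 42.3% for 16 or more. The share called lower was 15.2%, 15.7%, 3.1%, 2.8% and 7.7% in the same order, each below the 20.7% of all genes tested. Only 4 of the 33 members with 0 to 3 fingers had a KRAB match, against 26 of 36 with 12 to 15. ZNF142, with 36 patterns the longest array, rose by 0.31 (adjusted p = 0.00557), and ZNF462, with 33, by 0.36 (adjusted p = 0.000431). Members whose counts were whole in every library (within 1e-06 of a whole number) gave 53 higher and 10 lower of 134, and those with fractional counts 25 and 8 of 77. Members without exon overlap with another gene gave 40 higher and 8 lower of 100, and those with it 38 and 10 of 111. For the overlapping ones, without a known strand setting, reads of the overlapping genes cannot be told apart.

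The largest increases were found for ZNF280A and ZNF669, and 6 members passed a stricter test that asked for more than 1.5-fold. Higher by that test were 5 of the 211, ZNF280A, ZNF669, ZNF267, ZNF394 and ZNF721, and lower was 1, ZNF521. Of all 16046 genes tested, 371 (2.31%) were higher and 204 (1.27%) lower by it. Past 1.5-fold, the share of members higher was thus near that of all genes tested. ZNF280A (ENSG00000169548.3; chromosome 22, 22513736 to 22520270, minus strand) was at 2.00, 1.73 and 2.04 CPM (wild-type) and 7.44, 4.33 and 4.74 CPM (knockout) (log2 fold change 1.52, SE 0.25, adjusted p = 4.85e-05). Its knockout replicate 1 stood above the other knockout libraries, and without it the log2 fold change was 1.24 and the stricter test was missed (adjusted p = 0.087). ZNF267 (ENSG00000185947.15; chromosome 16, 31873807 to 31917357, plus strand) passed the stricter test with each library left out and with DESeq2 and limma-voom. ZNF394, a SCAN and KRAB protein, was at 23.9, 25.2 and 26.2 CPM (wild-type) and 41.7, 47.3 and 45.7 CPM (knockout) (log2 fold change 0.84, SE 0.081, adjusted p = 7.19e-08), and shares exon sequence with ZKSCAN5 and ZNF789. ZNF721, on chromosome 4, was at 23.9, 21.8 and 24.1 CPM (wild-type) and 38.8, 44.3 and 39.1 CPM (knockout) (log2 fold change 0.81, SE 0.085, adjusted p = 2.41e-07). With the stricter test, ZNF394 was missed without wild-type replicate 1 or 2 or knockout replicate 2 or 3 (adjusted p = 0.0533 to 0.0912), and ZNF721 was missed in every fit that left out a library except wild-type replicate 1 (adjusted p = 0.0632 to 0.238). ZNF721 barely passed with all libraries (adjusted p = 0.0492), and it was also missed with upper quartile scaling, no count filter, the replicate block and the length and GC correction (adjusted p = 0.0738, 0.0805, 0.0788 and 0.126). With that correction and the block together it was missed too (adjusted p = 0.165), as was ZNF394 (adjusted p = 0.0525). ZNF669 was missed without knockout replicate 1 (adjusted p = 0.0659), and ZNF521 without wild-type replicate 1 or 2 or knockout replicate 1 or 2 (adjusted p = 0.0541 to 0.178). By DESeq2's own test against 1.5-fold ZNF267 alone passed, and by that of limma-voom ZNF267 and ZNF669.

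**Figure D5:**
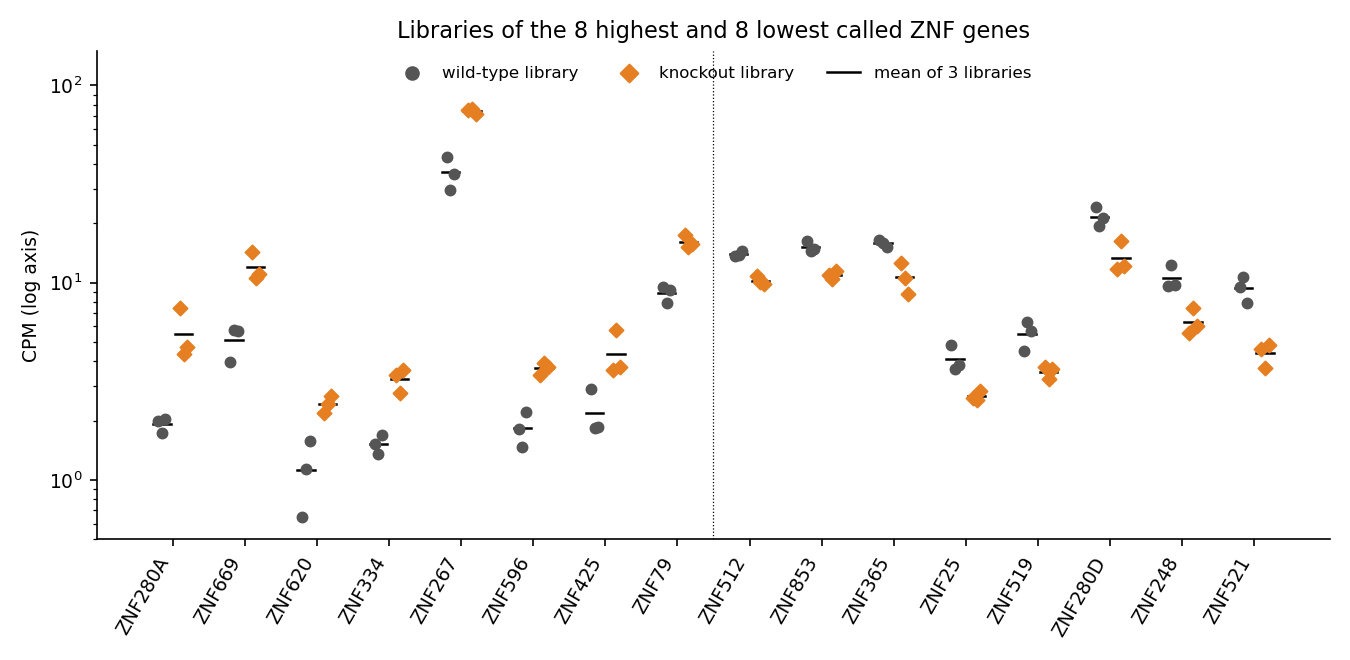
CPM (vertical log axis) in each library of the 8 highest and 8 lowest fold changes among called members whose genotypes do not overlap (left and right of the dotted line); circles are wild-type libraries, diamonds knockout libraries and bars means of 3. Each gene's diamonds lie wholly on one side of its circles, from under 1 CPM in a wild-type library of ZNF620 to 75.7 CPM in a knockout library of ZNF267.

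Other members among the largest increases had few counts. ZNF620 was at 0.647, 1.14 and 1.57 CPM (wild-type) and 2.18, 2.43 and 2.65 CPM (knockout) (log2 fold change 1.11, SE 0.34, adjusted p = 0.0127). Its call was lost without wild-type replicate 1 (adjusted p = 0.059) or knockout replicate 3 (adjusted p = 0.0539). ZNF334 had 1.53, 1.36 and 1.69 CPM (wild-type) and 3.40, 2.77 and 3.61 CPM (knockout) (log2 fold change 1.10, SE 0.27, adjusted p = 0.00256). ZNF596 had 1.82, 1.46 and 2.21 CPM (wild-type) and 3.40, 3.93 and 3.72 CPM (knockout) (log2 fold change 1.01, SE 0.26, adjusted p = 0.0034). For scale, 3 counts correspond to 0.159 to 0.176 CPM, and that limit covers counting error only. ZNF79 was better covered, at 9.52, 7.86 and 9.19 CPM (wild-type) and 17.5, 15.1 and 15.8 CPM (knockout) (log2 fold change 0.87, SE 0.12, adjusted p = 1.19e-05). ZNF408 was at 22.9, 27.5 and 23.2 CPM (wild-type) and 40.2, 42.5 and 42.02 CPM (knockout) (log2 fold change 0.76, SE 0.086, adjusted p = 6.46e-07), and the genotypes were far apart beside the spread within each. Among the decreases, ZNF280D had 24.2, 19.4 and 21.3 CPM (wild-type) and 11.8, 16.3 and 12.1 CPM (knockout) (log2 fold change -0.69, SE 0.13, adjusted p = 0.000226). ZNF853 had 15.2 ± 0.948 CPM (wild-type) and 10.97 ± 0.496 CPM (knockout) (log2 fold change -0.46, adjusted p = 0.00291), and ZNF512 13.98 ± 0.443 CPM (wild-type) and 10.2 ± 0.506 CPM (knockout) (log2 fold change -0.45, adjusted p = 0.0042; SD, n = 3). ZNF512B and ZNF692, with more counts, fell by 0.34 and 0.30 (adjusted p = 0.000484 and 0.00242). All the decreases named here had wild-type libraries wholly above knockout libraries.

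Several members have known work outside the silencing of repeats, and one tied to ribosomes had the highest level per length. ZNF622, which takes part in the maturation of the large ribosomal subunit, was at 102, 91.8 and 96.6 CPM (wild-type) and 142, 136 and 148 CPM (knockout) (log2 fold change 0.55, SE 0.059, adjusted p = 2.57e-07), and had the highest mean CPM per kilobase of exon of the 211, 69.9. ZNF598, a ubiquitin ligase that marks collided ribosomes, was at 106, 106 and 119.7 CPM (wild-type) and 138, 124 and 130.5 CPM (knockout) (log2 fold change 0.24, SE 0.062, adjusted p = 0.00325). ZNF593, a factor of large subunit export, was not called (33.4, 34.2 and 32.4 CPM (wild-type) and 35.9, 34.8 and 36.5 CPM (knockout); log2 fold change 0.10, adjusted p = 0.318), although its libraries did not overlap. ZNF207, a spindle protein known as BuGZ, had the highest count of all members and overlapping genotypes (296 ± 11.6 CPM (wild-type) and 309.9 ± 6.78 CPM (knockout); log2 fold change 0.065, adjusted p = 0.319). Of 4 RNA-binding members, ZNF346, which binds double-stranded RNA, was at 18.8, 19.5 and 20.7 CPM (wild-type) and 30.3, 28.1 and 32.04 CPM (knockout) (log2 fold change 0.62, SE 0.092, adjusted p = 1.8e-05). ZNF830, a spliceosome-associated protein, was at 16.99, 18.05 and 20.5 CPM (wild-type) and 23.4, 22.9 and 23.3 CPM (knockout) (log2 fold change 0.33, SE 0.10, adjusted p = 0.0115). ZNF326 and ZNF638 were not called (log2 fold change -0.16 and 0.048, adjusted p = 0.0738 and 0.523). ZNF385A, which binds p53, was not called either (64.3 ± 2.08 CPM (wild-type) and 68.95 ± 8.41 CPM (knockout); log2 fold change 0.10, adjusted p = 0.319).

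Of 14 members listed for known roles at promoters and chromatin, 7 rose (50%), 2 fell (14.3%) and 5 were not called, beside 37.0% and 8.5% of all members and 20.5% and 20.7% of all genes tested. ZNF143 (ENSG00000166478.10; chromosome 11, 9460319 to 9528524) was at 23.2, 23.4 and 19.7 CPM (wild-type) and 29.8, 27.5 and 32.1 CPM (knockout) (log2 fold change 0.43, SE 0.10, adjusted p = 0.0011). Its close relative ZNF76, which binds the same pattern, was at 15.2, 15.9 and 15.2 CPM (wild-type) and 11.9, 12.3 and 13.1 CPM (knockout) (log2 fold change -0.31, SE 0.11, adjusted p = 0.0299), the opposite direction, with no overlap of genotypes in either gene. The ZNF76 call was lost without knockout replicate 1 or 2 or wild-type replicate 2 or 3 (adjusted p = 0.0533 to 0.0997), with DESeq2 (adjusted p = 0.0621) and with library size alone (adjusted p = 0.0614). ZNF592 was at 52.3, 55.01 and 59.96 CPM (wild-type) and 76.2, 69.9 and 72.8 CPM (knockout) (log2 fold change 0.39, SE 0.068, adjusted p = 0.000115), while its partners in a complex with ZMYND8, ZNF687 and ZNF532, were not called (log2 fold change 0.043, adjusted p = 0.646) and lower (log2 fold change -0.25, adjusted p = 0.00443). ZNF281, a regulator of stem cell genes, was at 61.96, 55.2 and 57.2 CPM (wild-type) and 78.8, 74.7 and 77.5 CPM (knockout) (log2 fold change 0.41, SE 0.065, adjusted p = 4.26e-05). ZNF335, a part of a histone methyltransferase complex, and ZNF451, a SUMO ligase, rose by 0.35 and 0.32 (adjusted p = 0.000531 and 0.00154). ZNF644, a partner of the EHMT1 and EHMT2 methyltransferases, rose by 0.27 (adjusted p = 0.00688), a call lost without wild-type replicate 3 (adjusted p = 0.0553). ZNF410, known as an activator of CHD4, was at 53.5, 55.01 and 54.1 CPM (wild-type) and 58.98, 64.4 and 66.1 CPM (knockout) (log2 fold change 0.22, SE 0.067, adjusted p = 0.0123). Its call was lost without knockout replicate 3 (adjusted p = 0.0738) and with the length and GC correction and the block together (adjusted p = 0.0527). ZNF148, ZNF217, ZNF384 and ZNF827 were not called (log2 fold change -0.15 to 0.14, adjusted p = 0.059 to 0.54).

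Listed genes of the TRIM28 pathway and of heterochromatin were more often lower than higher, but TRIM28, SETDB1 and ATF7IP were not called. Of 28 listed genes, 27 were tested, of which 1 was higher, 12 were lower and 14 were not called (median log2 fold change -0.18). Of all genes tested, 20.5% were higher and 20.7% lower, and of protein-coding genes with the members' minimum count 22.9% and 25%. The listed genes had the higher counts, with a median mean count of 1488.6 against 377 for all genes tested. The difference in shares was not tested. TRIM28 itself was at 484, 534 and 563 CPM (wild-type) and 522, 479 and 509 CPM (knockout), with overlapping genotypes (log2 fold change -0.067, SE 0.056, adjusted p = 0.371). SETDB1 was at 60.6, 68.9 and 64.03 CPM (wild-type) and 71.04, 71.3 and 72.9 CPM (knockout) (log2 fold change 0.15, SE 0.065, adjusted p = 0.0651). EHMT2, a histone methyltransferase, had the smallest p of the list, at 57.7, 61.5 and 68.7 CPM (wild-type) and 45.6, 44.7 and 51.6 CPM (knockout) (log2 fold change -0.41, SE 0.078, adjusted p = 0.000284). The deacetylase HDAC2 was at 141, 138 and 139 CPM (wild-type) and 116, 119 and 112 CPM (knockout) (log2 fold change -0.27, SE 0.054, adjusted p = 0.000399). CBX5, a heterochromatin protein, was at 83.5, 97.3 and 104 CPM (wild-type) and 77.2, 76.9 and 70.5 CPM (knockout) (log2 fold change -0.34, SE 0.074, adjusted p = 0.000884). In these 3 genes each wild-type library lay above each knockout library. CBX1, CBX3, CHD3, CHD4, DNMT1, HDAC1, SMARCAD1, SUV39H1 and UHRF1 were the other lower genes, with log2 fold changes from -0.405 to -0.206. Of these, CHD3, SMARCAD1 and UHRF1 lost their calls in 3 or 4 of the 6 fits that left out a library (adjusted p = 0.0719 to 0.184), and the count of lower genes in those fits was 10 to 13. MPHOSPH8, a subunit of the HUSH silencing complex, was the higher gene, at 70.5, 75.4 and 81.7 CPM (wild-type) and 87.4, 93.7 and 95.8 CPM (knockout) (log2 fold change 0.28, SE 0.066, adjusted p = 0.00166). ZFP57 had no more than a few counts and was not tested.

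The ZNF genes of chromosome 19, taken by the same rule, served as the nearest comparison. They are given beside all genes tested, of which 20.5% were higher and 20.7% lower. Of the 214 on chromosome 19, 135 (63.1%) were higher and 3 (1.4%) lower. Their median log2 fold change was 0.49, against 0.16 for the members outside that chromosome. The 186 with a KRAB match had 126 higher and 1 lower (median 0.53), and the 105 KRAB members elsewhere had 46 and 4 (median 0.23). The 28 without a KRAB match had 9 higher and 2 lower (median 0.18), and the 106 such members elsewhere 32 and 14 (median 0.098). On chromosome 19 the median mean count was 202, lower than the 334 of the members elsewhere. The difference between the chromosomes was not tested.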

How the data were processed

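RNA from 3 wild-type and 3 DUS1L knockout A375 samples was sequenced as paired-end libraries, per the labels' protocols. The authors deposited a table of expected counts (estimated counts per gene that need not be whole), with no normalization recorded. Per the submitters' processing notes, reads were mapped to GRCh38. Which aligner, counter, strand setting and annotation served is not given in the sources used here.

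Genes were matched to GENCODE 44 by identifier without version (62541 of 63086), and groups came from the sample titles. Counts were rounded, genes were kept by filterByExpr with a minimum count of 10, and library sizes were scaled by TMM. Knockout and wild-type were compared by edgeR 4.0.16 (R 4.3.3) with a robust quasi-likelihood fit, genotype as the only term, 2-sided, with Benjamini-Hochberg adjustment over 16046 genes and a threshold of 0.05; glmTreat gave the test against 1.5-fold. CPM use the scaled library size. Group means carry SD, n = 3. The procedure was tested on simulated data. KRAB and SCAN matches come from HMMER profiles built from the 509 ZNF translations of GENCODE (E value up to 0.001), and finger patterns from spaced cysteines and histidines. Promoters come from RefSeq (GRCh38.p14).

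The members and all gene lists were chosen with earlier results of these data known. Named genes are the 8 highest and 8 lowest fold changes among called members whose groups do not overlap, the next 4 by p in each direction, the 6 highest per length, those next to the count threshold, members of role lists, the leading call of each neighbourhood and the 3 smallest p of the corepressor list; the rest were picked with their values known. The alternatives were DESeq2 1.42.0, limma-voom (limma 3.58.1), other scalings, filters and minimum counts, a replicate block, a correction for length and GC content, subsets of members, and leaving out each library.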

Additional observations from a re-analysis of the deposited data

How the results depend on the processing

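The members called higher numbered 66 to 89 and those called lower 14 to 26 under every alternative fit, including those that left out a library, and the median log2 fold change stayed above 0. That median was 0.209 with library size alone, 0.146 with upper quartile scaling, 0.151 with no count filter, 0.11 once length and GC content were corrected for, 0.107 with that correction and a replicate block, and 0.205 in the 100 members with no exon overlap. It ranged from 0.139 to 0.181 when a library was left out. The shares of all genes tested moved with the fit too, from 10.6% to 24.2% higher and from 11.3% to 24.8% lower. Their median log2 fold change ran from -0.039 with the length and GC correction to 0.041 with library size alone. In every fit the members had a larger share higher and a smaller share lower than all genes tested. The 100 members with no exon overlap gave 40 higher and 8 lower calls, and the 134 with whole counts gave 10 lower calls, since fewer genes were counted. Past 1.5-fold, higher members numbered 1 with DESeq2, 2 with limma-voom, 3 with the replicate block and the correction together, 3 among members with no exon overlap, 3 among those with whole counts, and 2 to 5 when a library was left out. Lower members past 1.5-fold numbered 0 with DESeq2 and limma-voom, 2 with a mean count of 10 or more, and 0 to 1 when a library was left out. The replicate numbers share only a number: the deviations of same-numbered libraries correlated at -0.03, -0.001 and 0.026, and with the replicate block 75 members were higher and 18 lower. After the length and GC correction, without and with the block, the log2 fold changes of 4 uncalled genes turned negative: ZNF148 (-0.029 and -0.028), ZNF207 (-0.023 in both), ZNF638 (-0.022 in both) and ZNF687 (-0.007 in both). ZNF713 (0.296 over all libraries) gave -0.142 to 0.829 when a library was left out, the ends being knockout replicate 3 and wild-type replicate 3. For the named genes, 725 alternative values kept their direction and side of the threshold, 29 lost the call and 7 gained it. The cause of these changes was not tested. Depth limits the weakest members most: 32 had a mean count under 100.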

Other observations

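Relatives of the ZNF genes on the same autosomes and with the same minimum count are given here beside the 20.5% of all genes tested that were higher and the 20.7% that were lower, with no test of the difference. Of 35 ZBTB genes, which pair zinc fingers with a BTB domain, 17 were higher and 2 lower, with a median log2 fold change of 0.19. ZKSCAN genes gave 3 higher of 6, ZSCAN genes 4 higher of 11 and ZFP genes 3 higher of 10, with none lower in these families and medians of 0.33, 0.22 and 0.17. On chromosome X, 4 of 9 ZNF genes were higher and none lower (median 0.28). Of the 40 ZNF genes outside chromosome 19 that stayed under the minimum count, 14 could be tested, of which none was higher and 1 was lower.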
